A study of Mus musculus with 7 samples.

Results

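The genes described here encode the proteins of the cytosolic ribosome. They were chosen by symbol, as protein-coding genes of GENCODE M21 named Rpl or Rps with a number, together with Rpsa, Rplp0, Rplp1 and Rplp2, leaving out the Rps6k kinases and symbols ending in -ps with or without a number. The symbol rule found 86 genes, and the 84 with at least 10 counts in every library were kept, 50 with large subunit symbols and 34 with small subunit symbols, out of 55487 gene identifiers. The other 2, Rpl3l and Rpl10l, had at most 2 and 5 counts in a library. A few of the 84 carry the name without being a regular subunit protein. Rps19bp1 encodes a partner of the Rps19 protein, and Rpl7l1 encodes a relative of Rpl7 that acts in ribosome assembly.

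Whole ovaries of C57BL/6J mice were taken at diestrus on postnatal day 60, with 1 RNA library per mouse. The 3 CNTR mice were born to dams given PBS late in gestation, between E16.5 and E18.5, and the study describes them as first-generation offspring. The 4 PAMH F3 mice belong to generation 3 of a lineage whose F0 dams received AMH, anti-Müllerian hormone, at 0.12 mg/kg per day over the same days. No further AMH was given to F2 or F3, and PAMH females were mated with unrelated PAMH males, so lineage, breeding and generation cannot be told apart between the groups. The sources differ on the route of injection. A whole ovary is a mixture of cell types, and in such a sample fewer cells of a type and less RNA per cell cannot be told apart.

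Ribosomal proteins are made in near-equal amounts and join ribosomal RNA in the nucleolus to form the large and small subunits. Their messages are among the most abundant of growing cells, and most begin with a C followed by a run of pyrimidines, the TOP motif, through which the mTOR kinase and the RNA-binding protein Larp1 set their translation. In the ovary, growing oocytes store ribosomes for the embryo, and granulosa and luteal cells make large amounts of protein. The counts measure message levels, not ribosomes or translation.

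These genes are hard to count, since mammalian genomes hold many processed pseudogenes copied from their messages and only uniquely aligned reads were counted. As a measure of this, each annotated transcript was divided into all windows of 50 bases, the read length, and the share of windows found in no other annotated gene was computed. Copies outside the annotation are not seen by this measure. The median member had 58.3% unique windows, with a range of 4.91% to 100%, and 81 of the 84 members shared a window with at least 1 annotated pseudogene. The extreme was Rpl7a, which shared windows with 120 pseudogenes. The small subunit gene Rps27 and its copies are an example. The first 60 coding bases of Rps27, of the retrotransposed copy Rps27rt and of the paralog Rps27l, from GENCODE M21, are given with the bases that differ from Rps27 in capitals.
Rps27: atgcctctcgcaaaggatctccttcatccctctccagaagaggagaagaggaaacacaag
Rps27rt: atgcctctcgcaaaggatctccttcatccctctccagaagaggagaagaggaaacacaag
Rps27l: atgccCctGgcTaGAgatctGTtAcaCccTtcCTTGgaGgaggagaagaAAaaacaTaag
Over all 255 coding bases, Rps27 and Rps27rt had 0 differences, whereas Rps27l had 18 differences in the 60 bases shown. A read from the coding sequence thus matches both genes equally. Rps27 had between 1.13 and 3.27 CPM (counts scaled to a library of standard size after TMM normalization) over the 7 libraries, Rps27rt between 3.25 and 4.61 CPM, and Rps27l between 62.2 and 92.9 CPM. The shares of unique windows were 40.3% for Rps27, 8.92% for Rps27rt and 82.5% for Rps27l. The counted levels of these genes cannot be compared as expression, and those of Rps27 and Rps27rt are uncertain.

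Other paralog pairs were less alike. Rpl39l and Rpl39 differed at 23 of 156 coding bases, 85.3% identity, and Rpl36al and Rpl36a at 39 of 321, 87.9% identity. Their first 60 coding bases, with 4 and 11 differences, are shown to compare the spacing of mismatches with that in the Rps27 genes, again with differences in capitals.
Rpl39: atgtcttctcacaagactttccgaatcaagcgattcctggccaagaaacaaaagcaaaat
Rpl39l: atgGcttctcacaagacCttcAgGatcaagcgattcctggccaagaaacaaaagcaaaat
Rpl36a: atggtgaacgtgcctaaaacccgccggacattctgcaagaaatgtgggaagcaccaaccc
Rpl36al: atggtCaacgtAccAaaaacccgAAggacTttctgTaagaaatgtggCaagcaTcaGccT
Rpl39l, known for expression in male germ cells, had 0.34 to 1.65 CPM, and Rpl39 had 94.7 to 147 CPM. The ratio of Rpl39l to Rpl39 averaged 0.00785 ± 0.00162 (SD, n = 3) in CNTR and 0.00786 ± 0.00348 (SD, n = 4) in PAMH F3 (exact permutation test on log2 ratios, two-sided, p = 0.886). Rpl36al and Rpl36a were counted at like levels, with a ratio of 1.07 ± 0.26 (SD, n = 3) in CNTR and 1.09 ± 0.195 (SD, n = 4) in PAMH F3 (exact permutation test, two-sided, p = 0.829). Rpl22l1, a paralog that can take the place of Rpl22, stood at 0.186 ± 0.0087 (SD, n = 3) of the counted Rpl22 level in CNTR and 0.173 ± 0.0124 (SD, n = 4) in PAMH F3 (exact permutation test, two-sided, p = 0.171). Unique windows made up 14.5% of Rpl36a and 78% of Rpl36al, and 41.1% of Rpl22l1 and 94.8% of Rpl22. The ratios thus compare counted reads between groups, not expression between the genes of a pair. Rpl7l1 was at 105 to 115 CPM and Rpl7 at 524 to 580 CPM, with overlapping groups for both. Rps4x, a small subunit gene on the X chromosome, was at 218 to 238 CPM.

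Across members, counted level and uniqueness moved together in part. The 33 members with under 50% unique windows had a median of 34.9 CPM per kb of transcript, and the 51 others had a median of 140 CPM per kb. Spearman's rho between the share of unique windows and CPM per kb was 0.395 over the 84 members, which share the same 7 libraries. The lowest members per kb were Rpl39l at 1.48, Rpl24 at 1.66 and Rps6 at 1.73 CPM per kb. Rps6, the target of the S6 kinases, had 15.4% unique windows and Rpl24 18.3%, and 47% of the exon bases of Rpl24 lie under another gene on the same strand. The highest were Rps3 at 1509 and Rps14 at 1482 CPM per kb, with 97.2% and 80.5% unique windows. By CPM alone, the members ranged from 0.641 to 1568 CPM on average, and the 5 with the most counts held 40.5% of the summed CPM. The part of uniqueness in the levels was not tested, and the comparisons of groups are made within a gene.

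**Figure D1:**
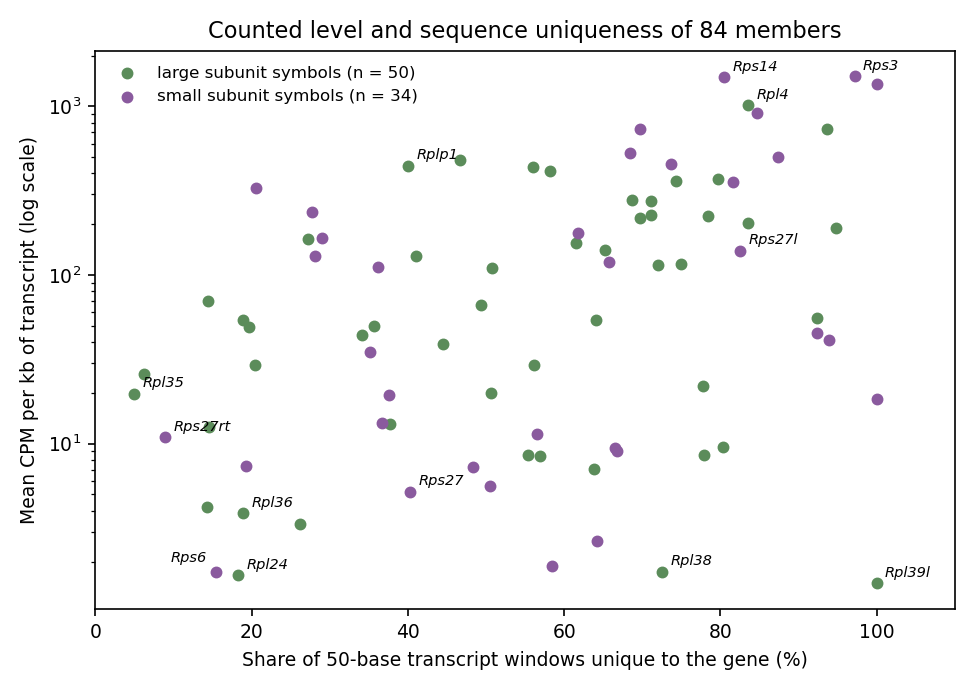
Mean CPM per kb of transcript over the 7 libraries (log scale) against the share of 50-base transcript windows unique to the gene, with 1 point per member, 50 large and 34 small subunit symbols. Rps3 and Rps14 lie at the top right, Rps6 and Rpl24 at the lower left, and Rpl39l is low with 100% unique windows.

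Together the members held a small share of the counts, and that share varied as much within groups as between them. In CNTR they made up 1.47%, 1.62% and 1.32% of the gene counts of replicates 1, 2 and 3. In PAMH F3 they made up 1.23%, 1.4%, 1.5% and 1.37% of replicates 1 to 4. The highest library was a CNTR library and the lowest a PAMH F3 library, but the groups overlapped, with means of 1.47% ± 0.15 (SD, n = 3) and 1.37% ± 0.115 (SD, n = 4), a ratio of 0.935. Without CNTR replicate 2 the ratio was 0.986. Large subunit members held 0.606% to 0.83% of the counts and small subunit members 0.62% to 0.791%, and both were highest in CNTR replicate 2 and lowest in PAMH F3 replicate 1.

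The members moved together from library to library. CNTR replicate 2 was the highest library for 44 of the 84 members, 52.4%, against 25.1% of all 18779 tested genes. PAMH F3 replicate 1 was the lowest library for 57 members, 67.9%, against 13.2% of all tested genes. Relative to the mean log2 CPM of CNTR, the median member stood at 0.12 in CNTR replicate 2 and at −0.12 in CNTR replicate 3. It stood at −0.25 in PAMH F3 replicate 1 and between −0.08 and −0.01 in the other PAMH F3 libraries. The median of all tested genes lay between −0.01 and 0.01 in each library. TMM scaling largely sets that median in advance, so it does not show that other genes were steady. CNTR replicate 2 was also the lowest library for 22.1% of all tested genes. The SD within groups of log2 CPM was 0.16 for the median member, with a range of 0.05 to 0.78. The median over all tested genes was 0.18 on log2 (CPM + 0.5), and these genes were not matched to the members in level. Beside this, the share of alignments set aside as not unique was 40.7%, 40.6% and 39.0% in CNTR and 37.7%, 39.9%, 40.3% and 38.5% in PAMH F3, lowest in the library with the lowest member share. The summed CPM of the mitochondrial ribosomal protein genes was also highest in CNTR replicate 2, at 3323 CPM, and lowest in PAMH F3 replicate 1, at 2630 CPM.

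**Figure D2:**
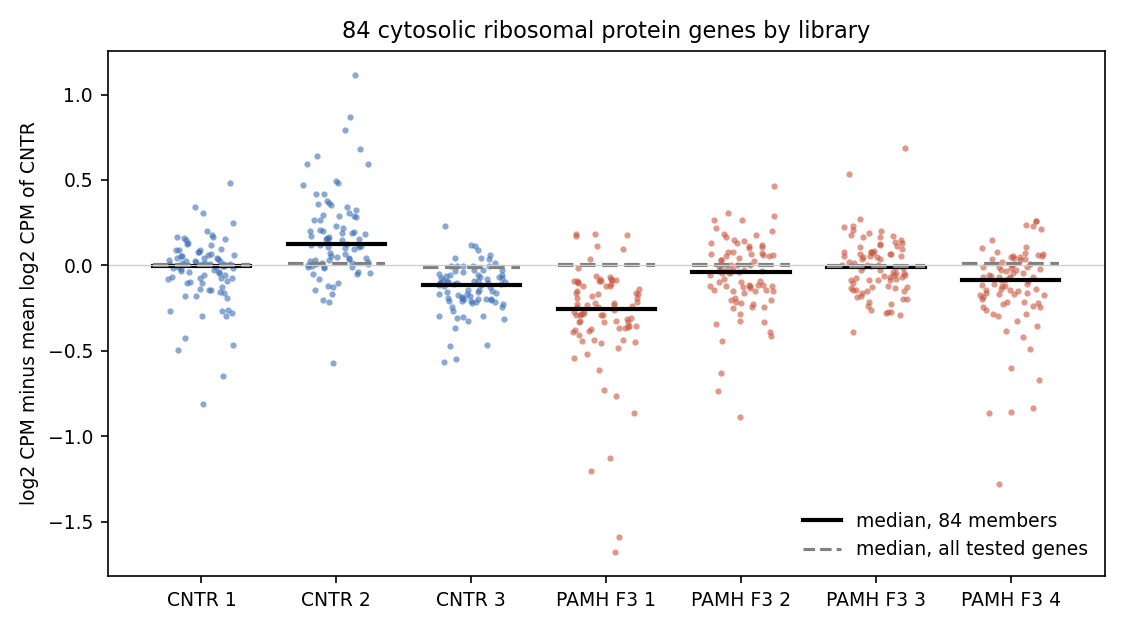
Log2 CPM of each of the 84 members minus its mean log2 CPM in CNTR, by library, with the median over members as a solid line and the median over all tested genes as a dashed line. The median member is highest in CNTR 2 and lowest in PAMH F3 1. The dashed lines lie near 0, where TMM scaling largely sets them.

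CNTR replicate 2 differed from the others in how counts depended on base composition. Taken relative to each gene's mean over all libraries, its log2 CPM rose by 0.27 for each 10 percentage points of GC content over all tested genes. The slopes of the other 6 libraries, on the same relative scale, lay between −0.11 and 0.04. Because the slopes are relative, the high slope of CNTR replicate 2 itself lowers those of the others. On transcript length, CNTR replicate 2 was not the extreme. Its slope was −0.03 for each doubling of length. The slopes ranged from −0.04 in PAMH F3 replicate 3 to 0.05 in PAMH F3 replicate 1, the library with the lowest member share. Members are short, with a median transcript of 764 bases against 2458 for all tested genes, and slightly GC-rich, with 51.5% against 50.1%. The ratio of CNTR replicate 2 to the mean of the other CNTR libraries had a median of 1.13 over the members and was above 1 for 65 of them. Over members, Spearman's rho of that ratio was 0.358 with GC content and −0.336 with length, as a description of 84 genes in the same libraries. It reached 3.19 for Rplp2, 2.39 for Rpl36 and 1.84 for Rplp1. The part of GC content and length in the group difference is given below as a corrected fit, and their part beyond that was not tested.

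**Figure D3:**
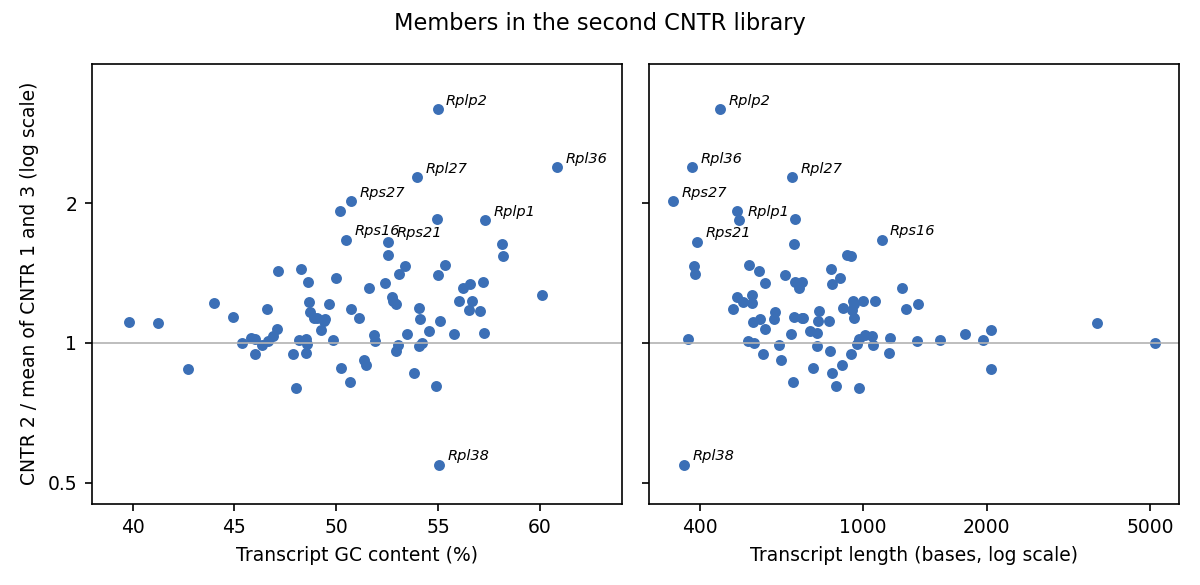
CPM in CNTR 2 over the mean CPM of CNTR 1 and CNTR 3 (log scale) against transcript GC content (left) and transcript length (log scale, right), with 1 point per member. Rplp2, Rpl36, Rpl27 and Rps27 lie highest, Rpl38 lowest, and most points lie above the line at 1.

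No member passed the threshold in the comparison of PAMH F3 with CNTR, which asks whether ribosomal protein messages differ in the ovaries of the third generation. In edgeR's quasi-likelihood test with 2 surrogate variables, 0 of the 84 members and 0 of 18779 genes, 0%, had an adjusted p of at most 0.05, and the smallest adjusted p of a member was 0.511. At an unadjusted p under 0.05 there were 11 members lower in PAMH F3, 13.1%, against 3.89% of all tested genes, and 1 member higher, 1.19%, against 3.75%. The median log2 fold change of the members was −0.06, beside 0.00 for all tested genes, and 64 of the 84 estimates were below 0. DESeq2 with the same surrogate variables called 1 member, Rps21, lower in PAMH F3, as were 0.288% of all tested genes, and gave 10 members lower and 0 higher at an unadjusted p under 0.05, against 3.07% and 2.74% of all tested genes. Without surrogate variables, edgeR gave 7 members lower, against 2.84% of all tested genes, and 0 higher, against 1.11%, at an unadjusted p under 0.05. Single libraries moved this count. Without CNTR replicate 1, 18 members were lower and 1 higher, against 9.94% and 7.09% of all tested genes, and without PAMH F3 replicate 2, 4 were lower and 0 higher, against 1.98% and 2.36%. Without CNTR replicate 2, 3 members were lower and 1 higher, against 3.62% and 4.19% of all tested genes, so the members stood at the background, and their median was −0.03. Without PAMH F3 replicate 1, 7 were lower and 1 higher, against 5.77% and 4.81%, with a median of −0.02.

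**Figure D4:**
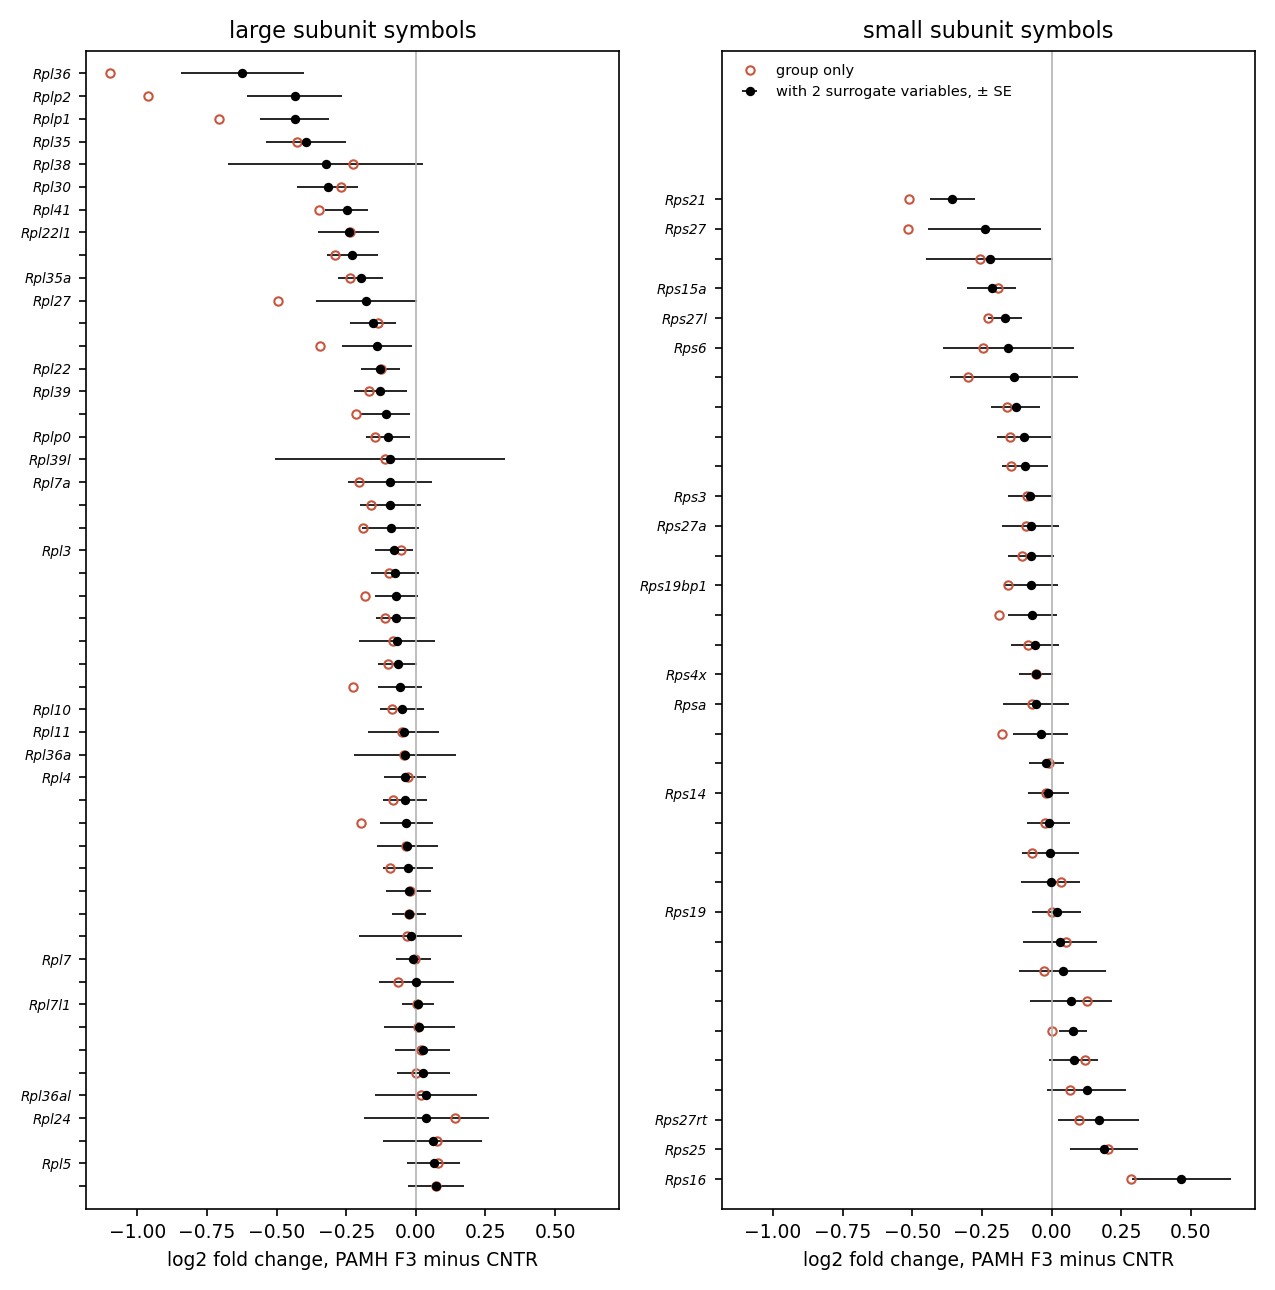
Log2 fold change of PAMH F3 minus CNTR for every member, large subunit symbols on the left and small subunit symbols on the right, with filled points and SE bars for the edgeR fit with 2 surrogate variables and open points for the fit of group only. Names are given for members described in the text. The large subunit members have a median of −0.07 and the small subunit members one of −0.06. Rpl36, Rplp2 and Rplp1 lie farthest to the left, farther still in the fit of group only.

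Rplp1 and Rplp2, of the ribosomal stalk, had the lowest estimates after the sparsely counted Rpl36. The stalk is a lateral arm of the large subunit that recruits the translation factors, and it consists of the Rplp0 protein and dimers of the acidic proteins P1 and P2. Rplp0 (chr5:115559467-115563727, mm10, plus strand) was measured at 572, 671 and 532 CPM in CNTR and at 488, 530, 566 and 553 CPM in PAMH F3. Its groups overlapped, with a log2 fold change of −0.10 ± 0.08 (SE). Rplp1 (chr9:61913284-61914542, minus strand) was measured at 193, 410 and 252 CPM in CNTR and at 118, 175, 255 and 149 CPM in PAMH F3. CNTR replicate 2 stood far above the rest, and PAMH F3 replicate 3 was above both other CNTR libraries. The log2 fold change of Rplp1 was −0.43 ± 0.12 (SE), with an unadjusted p of 0.00883 and an adjusted p of 0.531 in edgeR, and the exact permutation p was 0.143. With each library left out in turn, the estimate of Rplp1 ranged from −0.89 (CNTR replicate 1) to −0.32 (PAMH F3 replicate 1). It was −0.35 when CNTR replicate 2 was left out, and −0.71 in the fit with no surrogate variables. Rplp2 (chr7:141447370-141451585, plus strand) was measured at 38.8, 132 and 43.9 CPM in CNTR and at 27.9, 32.9, 51.9 and 34.1 CPM in PAMH F3. Apart from the single value of 132 CPM, all its values lay between 27.9 and 51.9 CPM, and the groups overlapped. The estimate, −0.44 ± 0.17 on the log2 scale (SE, adjusted p = 0.631 in edgeR), became −0.18 without CNTR replicate 2, −0.24 without PAMH F3 replicate 2, −0.67 without CNTR replicate 3, −1.08 without CNTR replicate 1 and −0.96 without surrogate variables. The ratio of Rplp1 to Rplp0 was 0.474 ± 0.137 (SD, n = 3) in CNTR and 0.323 ± 0.093 (SD, n = 4) in PAMH F3 (exact permutation test, two-sided, p = 0.114), and that of Rplp2 to Rplp1 was 0.232 ± 0.0784 and 0.214 ± 0.0225 (p = 0.857 by the same exact test).

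Rps21, which encodes a short protein of the small subunit (chr2:180257377-180258445, plus strand), had the smallest p of the members. It was measured at 189, 295 and 168 CPM in CNTR and at 124, 158, 189 and 139 CPM in PAMH F3. The groups overlapped, since PAMH F3 replicate 3 lay above CNTR replicate 3. The log2 fold change was −0.36 ± 0.08 (SE), with an unadjusted p of 0.00283 and an adjusted p of 0.511 in edgeR, and an adjusted p of 0.0387 in DESeq2 with the same surrogate variables. The log2 fold change was −0.26 without CNTR replicate 2 and −0.55 without CNTR replicate 1. Rpl41, which encodes a short basic peptide that bridges the subunits (chr10:128548114-128549305, minus strand), was measured at 128, 174 and 108 CPM in CNTR and at 92.1, 115, 121 and 100 CPM in PAMH F3. The log2 fold change of Rpl41 was −0.25 ± 0.08 (SE, adjusted p = 0.558 in edgeR), and the third CNTR library fell among the PAMH F3 values.

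**Figure D5:**
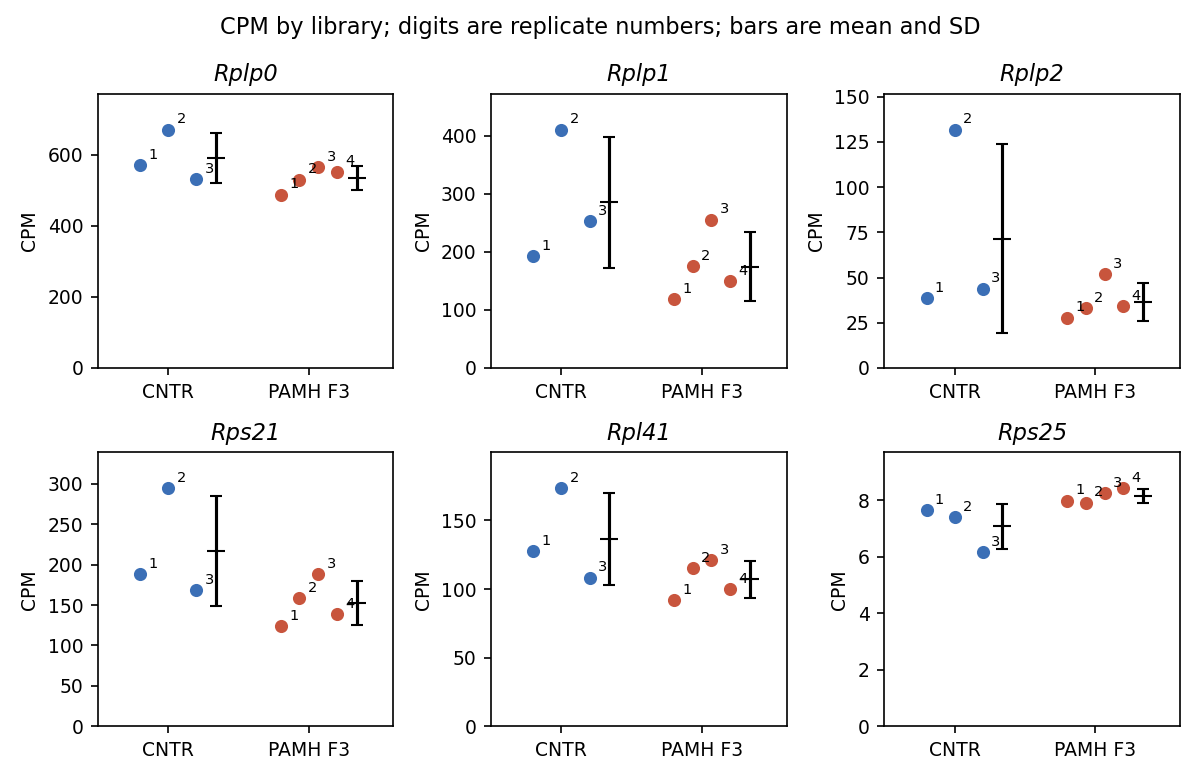
CPM of Rplp0, Rplp1, Rplp2, Rps21, Rpl41 and Rps25 in each library, on axes that start at 0, with the replicate number beside each point and bars for the mean and SD of 3 CNTR and 4 PAMH F3 libraries. CNTR 2 is the highest point of Rplp0, Rplp1, Rplp2, Rps21 and Rpl41, and for Rps25 all PAMH F3 points lie above all CNTR points.

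Other large subunit members among the smallest p values included Rpl30, Rpl36 and Rpl35. Rpl30, a protein that binds its own transcript in yeast, was at 122, 99.4 and 88.5 CPM in CNTR and at 75, 86.5, 84.7 and 96.6 CPM in PAMH F3. The estimate, −0.32 ± 0.11 on the log2 scale (SE, adjusted p = 0.599 in edgeR), was −0.14 without CNTR replicate 1 and −0.31 without CNTR replicate 2, and 20.4% of its exon bases lie under a gene on the other strand. Rpl35 was at 23.2, 25.1 and 17.6 CPM in CNTR and at 13.1, 16.6, 17.8 and 17.9 CPM in PAMH F3, a log2 fold change of −0.40 ± 0.14 (SE, adjusted p = 0.608 in edgeR), with 4.91% unique windows. Only CNTR replicate 3 fell inside the PAMH F3 range of Rpl35. Rpl36 had a log2 fold change of −0.62 ± 0.22 (SE, adjusted p = 0.599 in edgeR) on 21 to 116 counts a library, with 1.08, 3.48 and 1.83 CPM in CNTR and 0.595 to 1.45 CPM in PAMH F3. Over the libraries left out, its estimate ranged from −1.36 (CNTR replicate 1) to −0.48 (PAMH F3 replicate 1). It was −0.50 when CNTR replicate 2 was left out, and −1.10 in the fit with no surrogate variables.

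In the small subunit, Rps27l and Rps16 followed. Rps27l, a p53 target gene, was at 77.4, 92.9 and 75.1 CPM in CNTR and at 62.2, 72.7, 77.7 and 66.8 CPM in PAMH F3, and its estimate was −0.17 ± 0.06 on the log2 scale (SE, adjusted p = 0.599 in edgeR). Rps16 was the member at an unadjusted p under 0.05 with a higher estimate, 0.47 ± 0.18 on the log2 scale (SE, adjusted p = 0.628 in edgeR), on 49 to 94 counts a library. Its values were 1.48, 2.55 and 1.58 CPM in CNTR and 2.04, 2.5, 2.62 and 1.94 CPM in PAMH F3, with CNTR replicate 2 among the highest, and its estimate was 0.28 without surrogate variables and 0.18 without CNTR replicate 1. Rpl35a and Rps15a, named after their values were seen, were also among the 12, at log2 fold changes of −0.20 and −0.21.

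Rps25, which helps the ribosome start on internal entry sites (chr9:44407139-44410427, plus strand), was the member whose groups did not overlap. It was measured at 7.65, 7.41 and 6.16 CPM in CNTR and at 7.99, 7.92, 8.26 and 8.43 CPM in PAMH F3. The distance between the groups was small beside the spread in CNTR. The exact permutation p of 0.0286 is the smallest that the 35 divisions allow, whereas edgeR gave a log2 fold change of 0.19 ± 0.12 (SE, adjusted p = 0.773), which was 0.10 without CNTR replicate 3. Among all tested genes, 1.85% lay higher in PAMH F3 without overlap and 2.4% lower, so 1 of 84 higher and 0 lower is close to this background. Rps25 has 36.6% unique windows. After correction of CPM for GC content and length, Rps25 stayed apart, and Rpl35a and Rps27l were also apart, lower in PAMH F3. The share of all tested genes after that correction is not given here.

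The other members named for their role in the ribosome had an unadjusted p above 0.05 in edgeR. Rpl5 and Rpl11 form the 5S particle that can bind Mdm2 when assembly fails. Rpl5 averaged 51.6 ± 3.76 CPM (SD, n = 3) over the CNTR libraries and 54.5 ± 4.76 CPM (SD, n = 4) over the PAMH F3 libraries, and the same averages for Rpl11 were 11.2 ± 0.311 and 10.8 ± 1.29 CPM. Rpl3 reaches towards the peptidyl transferase centre and Rpl4 towards the exit tunnel. The mean of Rpl4 was 1585 ± 92.3 CPM among controls and 1555 ± 71.5 CPM in the lineage, a log2 fold change of −0.04 ± 0.08 (SE), and Rpl3 had a range of 88.0 to 101 CPM. Rpl10, which joins the large subunit late in its assembly, ranged from 23.1 to 27.0 CPM. Rps3, at the messenger RNA entry, averaged 1488 ± 143 CPM among controls and 1399 ± 55.2 CPM in the lineage, a log2 fold change of −0.08 ± 0.08 (SE). Rps14 had 996 ± 58.2 CPM and 983 ± 77.4 CPM, and Rpsa, also known as a laminin receptor, 16.4 ± 0.969 CPM and 15.6 ± 2.61 CPM. Rps27a, whose protein is made fused to ubiquitin, ranged from 12.9 to 15.5 CPM, and Rps6 from 1.03 to 2.04 CPM. Each of these had overlapping groups. With an SE of 0.08 on the log2 scale for both Rps3 and Rpl4, differences of that size were not detectable with 3 and 4 libraries.

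To ask whether single members stood apart from the rest, the same counts were fitted with the summed member counts as the library size. Group was the only term in this fit. In this fit 5 members were lower in PAMH F3 at an unadjusted p under 0.05, against 1.2% of all tested genes, and 0 were higher, against 2.12%. They were Rpl36, Rplp1, Rplp2, Rps21 and Rpl35, with log2 fold changes of −0.98, −0.60, −0.81, −0.39 and −0.31, and the smallest adjusted p among members was 0.834 in edgeR. This library size raised the estimates of other genes. The median of all tested genes was 0.11, with 25.6% below 0, and the median member was at 0.02. The shares of all tested genes are thus no even background for the members here. With surrogate variables added, 7 members had an unadjusted p under 0.05. With a correction for GC content and length in place of the surrogate variables, Rplp1 had a log2 fold change of −0.53, Rplp2 of −0.80 and Rps21 of −0.44, and the median member −0.04. The fit of group only, without that correction, gave −0.71, −0.96 and −0.51 for these genes and −0.09 for the median member. The estimates were thus smaller with the correction, but the count of members was not. With it, 9 members were lower and 0 higher at an unadjusted p under 0.05, against 3.02% and 1.43% of all tested genes. Without it, 7 members were lower, against 2.84%.

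The promoters of the members with the smallest p values were read for the start that ribosomal protein genes are known for. RefSeq windows on GRCm38.p6 were found for 64 of the 84 members, 75 windows in all, each with 250 bases before and 50 after the start. A run of at least 8 C or T bases reaching within 5 bases of the start was present in 24 of the 75 windows, 32%, against 9.38% of 32851 windows of all genes. The letters CCGGAAG, on either strand, were present in 36% of the member windows against 8.86%, GCCATNTT in 22.7% against 6.05%, GGGCGG in 61.3% against 35.7% and TATAAA in 9.33% against 13.6%. The bases from 30 before to 20 after the start are shown for members with an unadjusted p under 0.05 that have a window, with such a run in capitals, and where a gene had several windows the one with the longest run was taken.
Rps21: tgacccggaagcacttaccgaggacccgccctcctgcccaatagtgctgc
Rpl41: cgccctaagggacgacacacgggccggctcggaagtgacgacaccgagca
Rpl35: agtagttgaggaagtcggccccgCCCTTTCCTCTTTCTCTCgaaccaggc
Rps27l: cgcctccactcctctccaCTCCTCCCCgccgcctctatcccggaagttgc
Rplp2: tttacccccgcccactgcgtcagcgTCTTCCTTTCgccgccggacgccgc
Rpl35a: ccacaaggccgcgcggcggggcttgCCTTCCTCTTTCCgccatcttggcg
Rps15a: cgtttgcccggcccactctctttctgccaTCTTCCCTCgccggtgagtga
Rps16: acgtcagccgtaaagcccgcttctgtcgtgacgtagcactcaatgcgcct
These lie at chr2:180257349-180257398 (plus strand), chr10:128549149-128549198 (minus), chr2:39005112-39005161 (minus), chr9:66946056-66946105 (plus), chr7:141447621-141447670 (plus), chr16:33056452-33056501 (plus), chr7:118116128-118116177 (minus) and chr7:28350659-28350708 (plus) in the order given. Such runs are present in Rpl35, Rps27l, Rplp2, Rpl35a and Rps15a and not in the windows of Rps21, Rpl41 and Rps16. Rplp1, Rpl30 and Rpl36 had no window in the table used.

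Other genes of the ribosome and of translation gave no call either. Of the ribosome components outside the symbol rule, Rack1, a scaffold on the small subunit, was at 1398 to 1725 CPM, and the fusion gene Fau was at 0.85 to 2.07 CPM. Both had overlapping groups. Of the 26 translation factors and other messages with a TOP motif, 0 had an unadjusted p under 0.05 and the median log2 fold change was −0.01. Of all tested genes, 3.89% were lower and 3.75% higher at that p. Tpt1, a growth-related TOP message, was at 8.59, 8.97 and 7.49 CPM in CNTR and at 6.56 to 7.37 CPM in PAMH F3, without overlap, with an adjusted p of 0.664 in edgeR.

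Ribosome assembly genes had a median log2 fold change of −0.05. At an unadjusted p under 0.05, 4 of 39 were lower (10.3%, against 3.89% of all tested genes) and 0 higher (against 3.75%). Fbl, the methyltransferase of nucleolar particles that modify ribosomal RNA, was at 17.4, 24.3 and 16.2 CPM in CNTR and at 12.5, 14.1, 17.1 and 11.9 CPM in PAMH F3, a log2 fold change of −0.37 ± 0.08 (SE, adjusted p = 0.511 in edgeR). Nhp2 and Bop1 had log2 fold changes of −0.23 and −0.20. As in the members, CNTR replicate 2 was the highest library for each of the 3. Mitochondrial ribosomal protein genes had a median of −0.06, with 59 of 77 tested below 0, 5 lower (6.49%, against 3.89% of all tested genes) and 0 higher at an unadjusted p under 0.05, and 5 without overlap, all lower in PAMH F3, against 2.4% of all tested genes. Mrpl42 was at 51.0 to 55.0 CPM in CNTR and 45.8 to 48.7 CPM in PAMH F3, a log2 fold change of −0.17 ± 0.06 (SE, adjusted p = 0.599 in edgeR). Of 27 genes that control ribosomal protein messages, 1 was lower and 1 higher at an unadjusted p under 0.05. That is 3.7% each, against 3.89% and 3.75% of all tested genes. Eif4ebp1, an inhibitor of cap-dependent translation downstream of mTOR, was at 26.1 to 39.3 CPM in CNTR and 22.3 to 27.7 CPM in PAMH F3, and Tsc1, a brake on mTOR, at 72.2 to 81.0 CPM and 79.9 to 89.5 CPM, with overlapping groups for both.

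Marker genes of ovarian cells were present in every library. The 8 granulosa markers summed to 2673 to 4093 CPM in CNTR and 3060 to 4216 CPM in PAMH F3, the 6 luteal markers to 6179 to 8987 and 5918 to 8187 CPM, and the 9 oocyte markers to 413 to 501 and 318 to 515 CPM. The oocyte sum was lowest in PAMH F3 replicate 1, the library with the lowest member share. Markers of other tissue also varied, with the 9 of surface and oviduct epithelium at 3605 to 6080 and 3047 to 7246 CPM, the 6 of adipocytes at 343 to 1090 and 134 to 797 CPM, and the 8 of leukocytes at 379 to 401 and 259 to 495 CPM, highest in PAMH F3 replicate 1. No marker list had a gene at 0 in all libraries, and the groups overlapped in the sum of every list. The sums hide single markers. At an unadjusted p under 0.05 in edgeR, 2 of 8 granulosa markers were higher and 2 lower. At that p, 2 of 6 luteal, 2 of 5 endothelial, 1 of 7 stromal and 1 of 8 leukocyte markers were lower, and 0 of these were higher. None of the markers was called, and their part in the member levels was not tested.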

How the data were processed

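The members, gene lists and tests were chosen with earlier results of these data known. The authors made stranded poly(A) libraries, read 50 bases from single ends, demultiplexed with bcl2fastq 2.17.1.14, mapped to mm10 with STAR 2.5.3a and counted uniquely aligned reads per gene with HTSeq 0.6.1p1 in union mode, and deposited raw counts. Each library held 32158174 to 35485021 gene counts, so counting error is small for all but the sparsest members. Differences between groups were tested with the edgeR 4.0.16 quasi-likelihood F test in R 4.3.3 on TMM-normalized counts of 18779 genes kept at a minimum count of 10, with 2 surrogate variables from sva 3.50.0 and Benjamini-Hochberg adjustment, which left 3 residual degrees of freedom. DESeq2 1.42.0 was an alternative. The authors' IHW adjustment was not used. Exact permutation tests were two-sided over 35 divisions of log2 CPM. Transcript length and GC content are medians over basic transcripts. Only the edgeR fit of group alone was run on simulated counts. The fit with surrogate variables, DESeq2 and the permutation tests were not. Named members were fixed by role, paralogy, smallest p, absence of overlap, level and spread, and Rps27rt, Rps19bp1, Rpl7a, Rpl27, Rpl38, Rpl35a and Rps15a were named after their values were seen. Some genes that these rules name are not reported here. Alternatives covered surrogate variables, tool, scaling, filter, base composition, a replicate block and leaving out each library.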

Additional observations from a re-analysis of the deposited data

How the results depend on the processing

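With 3 and 4 libraries and 3 residual degrees of freedom, small differences could not be detected, and generation cannot be told apart from group. The count of members called, 0, was 1 in DESeq2 with the same surrogate variables and 0 in every other alternative. The 12 members at an unadjusted p under 0.05 became 7 in edgeR and 6 in DESeq2 without surrogate variables, and ranged from 4 to 19 when each library was left out in turn, or from 0 to 15 when the surrogate variables were left out too. The median log2 fold change ranged from −0.11 to −0.02 over the libraries left out, or from −0.16 to −0.02 with the surrogate variables left out too, and the ratio of the summed shares from 0.89 to 0.986. The members without overlap, 1, became 3 after correction for GC content and length and ranged from 2 to 20 with a library left out. The share of tested genes after that correction is not given here. The 20 came without CNTR replicate 3, 19 of them lower in PAMH F3, 23.8% of the members against 13.3% of tested genes. With any other library left out, the share of members was below that of tested genes. It was 5.95% against 15.5% without CNTR replicate 1, 2.38% against 9.81% without CNTR replicate 2 and 8.33% against 9.06% without PAMH F3 replicate 3. The log2 fold change of Rpl39l, −0.09, ranged from −0.43 to 0.12 over the libraries left out, or from −0.50 to 0.18 with the surrogate variables left out too, and was above 0 without CNTR replicate 1 (0.0586, or 0.0489 with no surrogate variables) and without PAMH F3 replicate 1 (0.119 or 0.176). It was lowest without PAMH F3 replicate 3. In a fit with a replicate block and no surrogate variables, 4 members were lower and 0 higher at an unadjusted p under 0.05, against 1.62% and 0.756% of all tested genes, and the median was −0.11. The deviations of libraries with the same number correlated at 0.112, 0.117 and −0.302 over genes. Whether the numbers pair the mice cannot be told from these values. The cause of these changes was not tested.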
